A study of Homo sapiens with 8 samples.

Results

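The genes described here are 39 histone lysine methyltransferases and demethylases, taken by name as a family of chromatin enzymes and without the subunits of Polycomb repressive complex 2. All 39 symbols were found among the 26443 rows of the deposited table that carry values. In 38 of them the mean level over the 8 libraries reached 1 FPKM (fragments per kilobase, corrected for the size of the library), and these 38 were tested. The study measured RNA by sequencing in C4-2B, a human prostate cancer line of the LNCaP lineage that grows without androgen, with 2 libraries in each of 4 groups after 7 days of exposure. The Combination group received ENZ and EPZ6438 together, with no separate doses given for it, the ENZ group received ENZ at 10 uM, the EPZ group received EPZ6438 at 1 uM, and the DMSO group was the control. ENZ commonly stands for enzalutamide, which blocks the androgen receptor, and EPZ6438 is an inhibitor of the histone methyltransferase EZH2. All groups were grown in the same serum-containing medium, and the labels name no genetic change. The labels do not say whether the 2 libraries of a group came from separate cultures, so each p-value reflects no more than the difference between such libraries, which may be technical.

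Histone lysine methyltransferases add methyl groups to lysines of histone tails, or of the histone core in the case of DOT1L, and demethylases remove them. Methylation of H3K4, H3K36 and H3K79 is found mainly at active promoters, enhancers and transcribed gene bodies, whereas methylation of H3K9 and H3K27 is found mainly at silent chromatin. The demethylases fall into the flavin-dependent enzymes KDM1A and KDM1B and the oxygen-dependent enzymes with a Jumonji domain. In prostate cancer cells several of them, among them KDM1A, KDM4B and PHF8, are known as partners or targets of the androgen receptor.

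Depth, read from the step size of the smallest values, was an estimated 15400000 to 24400000 fragments per library, so that the tested members rested on between 68 fragments in a library (KDM8) and 13750 (KDM5B). All 8 luminal prostate markers were detected in the line. They summed to 955 to 984 FPKM in Combination, 790 to 802 FPKM in ENZ, 3758 to 3781 FPKM in EPZ and 1654 to 1692 FPKM in DMSO. The 2 endothelial markers summed to at most 0.857 FPKM in any library. The 2 neuroendocrine markers, of which only SYP reached 1 FPKM, summed to 0.711 to 0.844 FPKM in Combination and 0.294 to 0.52 FPKM in ENZ. In EPZ they summed to 1.09 to 1.29 FPKM and in DMSO to 0.357 to 0.364 FPKM. The 3 basal markers summed to at most 0.184 FPKM and the 3 immune markers to at most 0.157 FPKM in any library, while the 6 stromal markers, of which only VIM and COL1A1 reached 1 FPKM, summed to 35 to 35.9 FPKM in Combination and 14.2 to 14.8 FPKM in DMSO. Proliferation genes moved with the treatments. MKI67 averaged 2.42 FPKM in Combination, 37.3 FPKM in ENZ, 18 FPKM in EPZ and 33.1 FPKM in DMSO, and CCNA2 averaged 2.15, 21.8, 11.3 and 33.9 FPKM in the same groups. EZH2 itself averaged 6.38 FPKM in Combination, 24.8 FPKM in ENZ, 15.4 FPKM in EPZ and 25.8 FPKM in DMSO. The androgen-induced gene KLK3 averaged 392 FPKM in Combination, 224 FPKM in ENZ, 2801 FPKM in EPZ and 996 FPKM in DMSO.

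In Combination against DMSO, the H3K27 demethylase KDM6B and the H3K4 demethylase KDM5B rose the most, and the H3K9 methyltransferases SUV39H1 and SUV39H2, the methyltransferase SMYD2 and the demethylase KDM1A fell the most. In all, 20 of the 38 tested members rose (52.6%) and 14 fell (36.8%) in Combination (adjusted p under 0.05, limma's moderated test). Over all 11874 tested genes 33.3% rose and 47.4% fell in the same comparison, so that 80.8% of all genes were called in either direction. The median log2 change was 0.24 over the members and -0.15 over all tested genes. With median-of-ratios scaling the median of all genes moved to 0.0024 and that of the members to 0.41. The size of the changes in Combination, and some of the calls, therefore depend on the scaling. Of the calls in Combination, 16 of 20 higher ones and 11 of 14 lower ones held under every alternative setting and with each library left out.

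Fewer members passed the test with the single agents. In ENZ 13 of 38 members rose (34.2%) and 8 fell (21.1%), against 27.9% and 28.8% of all tested genes (56.7% in either direction), with a median log2 change of 0.074 over the members and 0.0049 over all genes. In EPZ 9 members rose (23.7%) and 12 fell (31.6%), against 23.4% and 32.4% of all genes (55.8% in either direction), with a median of 0.015 over the members and -0.046 over all genes. The shares in EPZ lie near those of all genes. In the longest of 4 classes of exonic length, which holds 23 of the members, 37.1% of all genes rose in ENZ and 20.7% fell. Of those 23 members 8 rose in ENZ and 4 fell. In the third class 4 of 10 members rose and 2 fell, against 29.7% and 27% of all genes. In the second class 1 of 5 members rose and 2 fell, against 24.8% and 32%. How far length bears on the shares in ENZ was not tested. Of the member calls in ENZ 61.9% were higher, and 45% with the trend with exonic length removed, whereas in EPZ 42.9% were higher, and 54.5% with median-of-ratios scaling. Of the calls in ENZ 9 of 13 higher and 7 of 8 lower held under every alternative, and of those in EPZ 6 of 9 higher and 8 of 12 lower held. The 3 comparisons share the DMSO libraries and are therefore given side by side below, gene by gene. In a bulk culture, fewer cells with a transcript and less transcript per cell cannot be told apart.

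**Figure D1:**
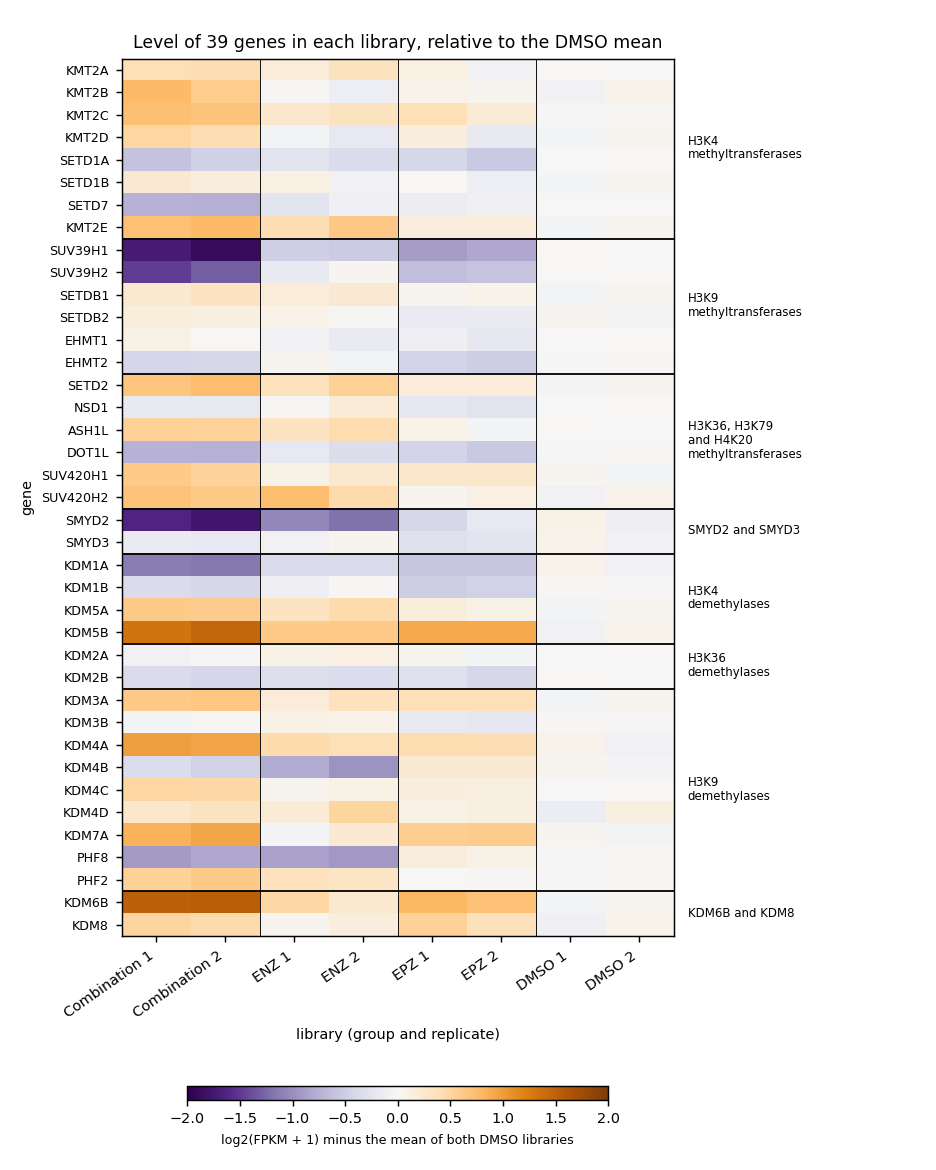
Level of each of the 39 genes in each of the 8 libraries, as log2(FPKM + 1) minus the mean of both DMSO libraries, with genes in rows grouped by substrate and libraries in columns. The darkest rows in the Combination columns are KDM6B and KDM5B on the higher side and SUV39H1, SMYD2, SUV39H2 and KDM1A on the lower side.

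FPKM is a level per length, so the members can be ranked within a group. In Combination the first 3 places were held by KDM6B at 33.5 FPKM, KDM5B at 28.8 FPKM and KDM4A at 24.1 FPKM, with no overlap between neighbours. Their places in DMSO were 18, 20 and 12. In DMSO, KDM1A was the most abundant member at a mean of 43.3 FPKM, followed by SETD7 at 33.2 FPKM and KDM4B at 25.8 FPKM, and the lowest was KDM4D at 0.415 FPKM. The ranges of the 2 libraries overlapped for 18 of the 38 pairs of neighbours in this order, so the order is loose in its middle, where KDM4A, KMT2E, SMYD2, SUV39H1, SMYD3 and SETD1A lay between 11.2 and 11.9 FPKM. The median level over the 39 genes was 10.9 FPKM in Combination, 10.1 FPKM in ENZ, 9.14 FPKM in EPZ and 10.4 FPKM in DMSO.

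At the scale of the FPKM means, 4 members (KDM4A, KDM5B, KDM6B and KDM7A) were at least 2-fold higher in Combination than in DMSO and 4 (KDM1A, SMYD2, SUV39H1 and SUV39H2) at least 2-fold lower. Over all tested genes 14.8% were at least 2-fold higher and 18.9% at least 2-fold lower in Combination. In ENZ only SMYD2 passed a 2-fold difference, and in EPZ 0 members did. Over all tested genes 6.27% were at least 2-fold higher in ENZ and 4.73% in EPZ, and 2.18% were at least 2-fold lower in ENZ and 2.69% in EPZ.

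**Figure D2:**
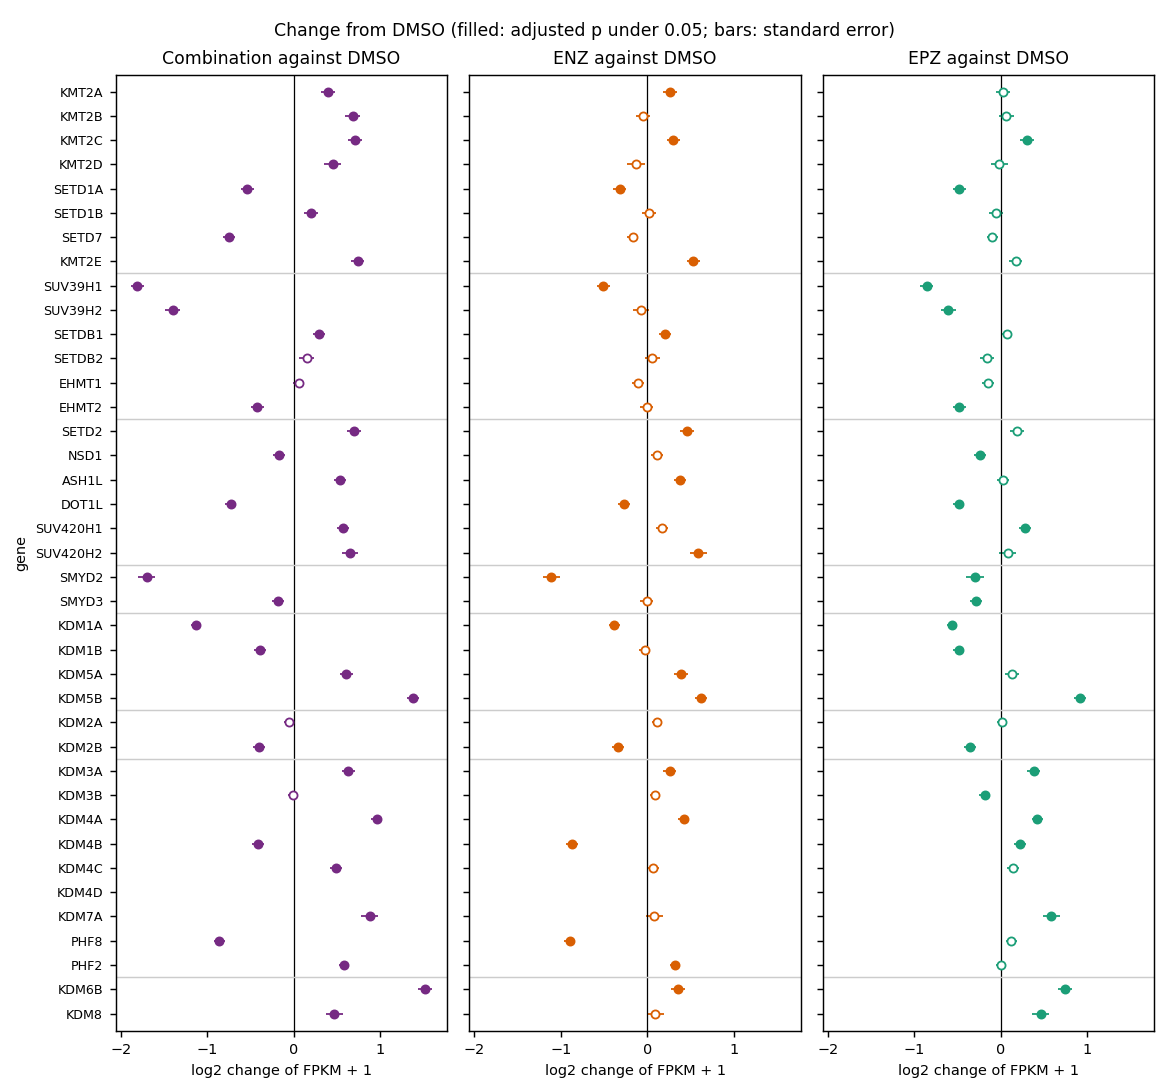
Log2 change of FPKM + 1 of each tested member in Combination, ENZ and EPZ against DMSO, with its standard error; filled points passed an adjusted p of 0.05 and open points did not. SUV39H1 stands at -1.81 in Combination, -0.51 in ENZ and -0.86 in EPZ, and KDM4B at -0.41, -0.87 and 0.22 in the same order.

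In the H3K4 methyltransferase group of 8 genes, which includes KMT2E, a family member without known methyltransferase activity, 6 rose (75%) and 2 fell (25%) in Combination, against 33.3% and 47.4% of all tested genes. The median log2 change in Combination was 0.42, against -0.15 over all genes. All of the group but SETD1A are in the longest class of exonic length. Of all genes in that class 42.3% rose and 36.3% fell in Combination, with a median of 0.05. The calls of KMT2A and KMT2D in Combination were lost with the trend with exonic length removed, and that of SETD1B with no filter. In ENZ 3 rose and 1 fell (37.5% and 12.5%, against 27.9% and 28.8% of all genes), and in EPZ 1 rose and 1 fell (12.5% each, against 23.4% and 32.4%). KMT2C, which with KMT2D forms the pair of large enzymes known for monomethylation at enhancers, had 16 and 15.5 FPKM in Combination, 11.3 and 12 FPKM in ENZ, 12.5 and 10.8 FPKM in EPZ and 9.11 and 9.47 FPKM in DMSO. All 6 treated libraries lay above both DMSO libraries. The log2 change of KMT2C was 0.71 ± 0.077 in Combination (SE, adjusted p = 1.32e-05), 0.30 ± 0.077 in ENZ and 0.30 ± 0.077 in EPZ, and the call in EPZ was lost without the first EPZ library (0.20, adjusted p = 0.0953) and without the first DMSO library (adjusted p = 0.0559). The call of KMT2C in ENZ was lost without the first DMSO library (0.27, adjusted p = 0.0525) and with the length trend removed (0.15, adjusted p = 0.0856).

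KMT2E had 19.7 and 20.6 FPKM in Combination, 16 and 18.7 FPKM in ENZ, 13.3 and 13.3 FPKM in EPZ and 11.4 and 12 FPKM in DMSO. Both ENZ libraries and both Combination libraries stood above all EPZ and DMSO libraries. The log2 change of KMT2E was 0.74 ± 0.076 in Combination (adjusted p = 8.41e-06), 0.53 ± 0.076 in ENZ (adjusted p = 3.19e-04) and 0.17 ± 0.076 in EPZ (adjusted p = 0.0772). In EPZ it passed under both other scalings (0.22, adjusted p = 0.0286, with median-of-ratios scaling) and in 4 further alternatives.

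KMT2B, which like KMT2A binds the tumour suppressor menin and methylates H3K4 at promoters, had 15.5 and 13.5 FPKM in Combination, 8.83 and 7.9 FPKM in ENZ, 9.34 and 8.92 FPKM in EPZ and 8.27 and 9.14 FPKM in DMSO. The Combination libraries stood apart, and ENZ and EPZ each overlapped DMSO. For KMT2B the log2 change was 0.68 ± 0.086 in Combination (adjusted p = 4.12e-05), -0.051 in ENZ (adjusted p = 0.633) and 0.064 in EPZ (adjusted p = 0.553). KMT2D had 13.8 and 13 FPKM in Combination, 9.12 and 8.23 FPKM in ENZ, 10.7 and 8.33 FPKM in EPZ and 9.28 and 9.83 FPKM in DMSO. Again the Combination libraries were the highest, and EPZ overlapped DMSO. For KMT2D the log2 change in Combination was 0.45 ± 0.1 (adjusted p = 0.00229), and 0.22 (adjusted p = 0.0707) with the trend with exonic length removed.

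SETD7, which adds a single methyl group to H3K4 and also modifies many other proteins, had the largest fall of the H3K4 methyltransferases in Combination. It had 19.4 and 19.3 FPKM in Combination, 27.7 and 31.4 FPKM in ENZ, 30.4 and 31.3 FPKM in EPZ and 33.3 and 33.2 FPKM in DMSO. The Combination libraries were the lowest, and ENZ and EPZ overlapped each other below DMSO. For SETD7 the log2 change was -0.75 ± 0.066 in Combination (adjusted p = 2.68e-06) and -0.33 with quantile normalization, while ENZ (-0.17, adjusted p = 0.0523) and EPZ (-0.10, adjusted p = 0.203) did not pass. The value of SETD7 in ENZ passed in 5 alternatives, among them -0.29 with the length trend removed (adjusted p = 0.00214) and -0.26 without the second ENZ library (adjusted p = 0.00447).

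SETD1A, the catalytic subunit of a complex that trimethylates H3K4 at promoters, had 7.07 and 7.73 FPKM in Combination, 9.13 and 8.5 FPKM in ENZ, 8.18 and 7.36 FPKM in EPZ and 11.1 and 11.3 FPKM in DMSO. It fell in all 3 treatments, with all treated libraries below both DMSO libraries. For SETD1A the log2 change was -0.54 ± 0.075 in Combination (adjusted p = 7.83e-05), -0.32 ± 0.075 in ENZ and -0.48 ± 0.075 in EPZ. Its paralogue SETD1B averaged 10.7 ± 0.351 FPKM in Combination and 9.15 ± 0.338 FPKM in DMSO (SD, n = 2 each), a log2 change of 0.20 whose call (adjusted p = 0.0422) was lost without any 1 of the Combination or DMSO libraries (0.17 to 0.24, adjusted p = 0.0681 to 0.175). KMT2A rose by 0.40 ± 0.08 in Combination (adjusted p = 0.00109), and with the length trend removed this value was 0.063 (adjusted p = 0.389). In ENZ its log2 change was 0.26 (adjusted p = 0.0191), a call that was lost under quantile normalization, without the length trend, and without either DMSO library or the second ENZ library. KMT2A has the longest exonic sequence of the members, 31305 bases, of which 18.9% is shared with other genes.

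The H3K9 methyltransferases included SUV39H1, the member with the largest fall in Combination. SUV39H1 and SUV39H2 trimethylate H3K9 in constitutive heterochromatin and create the binding site of HP1 proteins. SUV39H1 (chromosome X) had 2.8 and 2.4 FPKM in Combination, 7.92 and 7.77 FPKM in ENZ, 5.77 and 6.1 FPKM in EPZ and 11.7 and 11.5 FPKM in DMSO. The 4 groups did not overlap, and the Combination mean was 0.224 times the DMSO mean. For SUV39H1 the log2 change was -1.81 ± 0.075 in Combination (adjusted p = 1.24e-08), -0.51 ± 0.075 in ENZ (adjusted p = 3.54e-04) and -0.86 ± 0.075 in EPZ (adjusted p = 1.46e-05). Of the exonic bases of SUV39H1 20.3% are shared with a gene on the opposite strand, and no source used here gives the strand setting of the counting.

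SUV39H2 (chromosome 10) had 3.15 and 3.68 FPKM in Combination, 9.24 and 10.9 FPKM in ENZ, 6.45 and 6.7 FPKM in EPZ and 10.6 and 10.6 FPKM in DMSO. ENZ overlapped DMSO, and the Combination and EPZ libraries lay below all of them. For SUV39H2 the log2 change was -1.40 ± 0.088 in Combination (adjusted p = 2.33e-07), -0.073 in ENZ (adjusted p = 0.507) and -0.61 ± 0.088 in EPZ (adjusted p = 3.19e-04). MKI67, CCNA2, MCM2 and EZH2 were likewise lowest in Combination and next lowest in EPZ, with MCM2, a replication licensing gene, at 13.5 FPKM in Combination, 96.3 FPKM in ENZ, 48.6 FPKM in EPZ and 114 FPKM in DMSO. The part of proliferation in the falls of SUV39H1 and SUV39H2 was not tested.

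**Figure D3:**
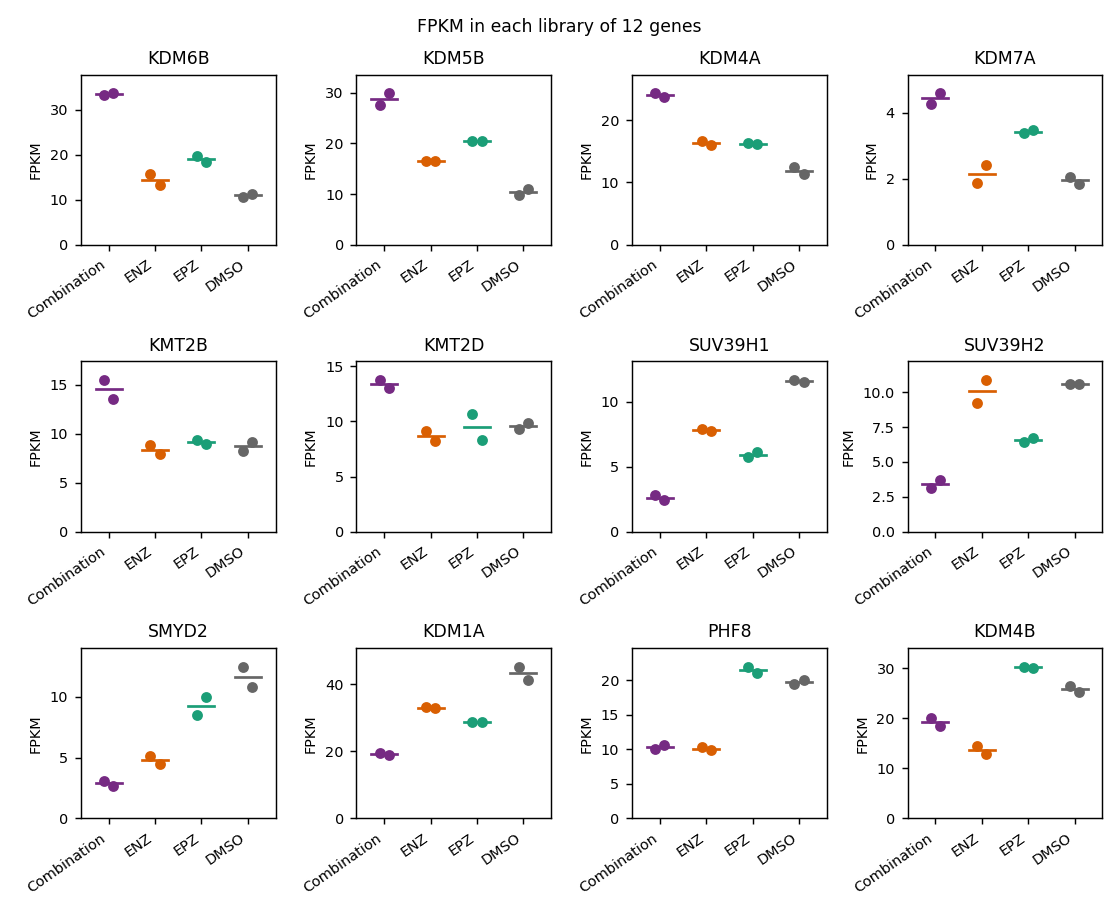
FPKM of 12 members in each library, with a point for each library and a bar at the group mean, in the order Combination, ENZ, EPZ and DMSO. SUV39H1 averages 2.6 FPKM in Combination and 11.6 FPKM in DMSO, while PHF8 and KDM4B are low in both groups that received ENZ and not in EPZ.

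Since SUV39H1 and SUV39H2 fell together in Combination and EPZ, sequence before an annotated start of each is shown, with that of KDM1B, the member whose promoter window held a letter match of the E2F family. RefSeq promoter windows (GRCh38.p14) were found for 37 of the 39 members, 54 windows in all, and the 250 bases before each start were searched on both strands. SUV39H1 has 2 such windows, at chrX:48695304-48695553 before the start of the gene and at chrX:48696484-48696733 before a second RefSeq start inside it, and the stretch printed is from the second. Stretches that GENCODE release 29 annotates as exon were left out of the print. Capitals mark a match to 1 of the E2F words TTTCCCGC, TTTCGCGC, TTTGCCGC and TTTGGCGC. The stretches lie at chrX:48696484-48696594, chr10:14878687-14878819 and chr6:18155172-18155328, all on the plus strand, and end at positions -140, -47 and -94 relative to the RefSeq start of their window.
SUV39H1: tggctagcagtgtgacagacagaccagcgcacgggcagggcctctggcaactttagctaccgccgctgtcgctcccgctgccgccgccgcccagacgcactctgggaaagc
SUV39H2: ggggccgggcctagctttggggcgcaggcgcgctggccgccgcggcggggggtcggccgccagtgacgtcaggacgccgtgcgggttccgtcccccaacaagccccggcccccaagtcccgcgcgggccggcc
KDM1B: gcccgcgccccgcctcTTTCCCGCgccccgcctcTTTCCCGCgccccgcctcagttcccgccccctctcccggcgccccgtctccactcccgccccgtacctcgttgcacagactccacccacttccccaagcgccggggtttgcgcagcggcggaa

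The 2 E2F matches of KDM1B start at positions -234 and -216, in a stretch that is repeated there. An E2F word was found in 1 of the 54 member windows, against 2.79% of the 35116 windows of all genes. The word TTTGAA of the cell cycle homology region was also found in 1 member window, that of PHF8, against 13.3% of all windows. A CCAAT box was found in 29.6% of member windows and 32% of all windows, with that of SUV39H1 starting at position -38 of its second window, in the part not printed. The first window of SUV39H1 held 0 matches to any of these words. The full palindromic androgen response element was in 0 member windows and in 0.00285% of all windows. The GC content of the whole windows was 73.6% for the second window of SUV39H1, 56% for its first, 79.6% for SUV39H2 and 73.6% for KDM1B, against a median of 58% over all windows.

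The other H3K9 methyltransferases moved less. EHMT2 (G9a), which dimethylates H3K9 in euchromatin as a partner of EHMT1, averaged 3.45 FPKM in Combination, 4.93 FPKM in ENZ, 3.26 FPKM in EPZ and 4.96 FPKM in DMSO. It fell in Combination (-0.42 ± 0.074, adjusted p = 4.31e-04) and in EPZ (-0.48 ± 0.074, adjusted p = 4.58e-04), and did not pass in ENZ (-0.0062, adjusted p = 0.95). EHMT1 averaged 23 FPKM in Combination, 20.3 FPKM in ENZ, 19.8 FPKM in EPZ and 22.1 FPKM in DMSO, with no call against DMSO. In Combination the direction of EHMT1 depended on the processing. It rose past the threshold with median-of-ratios scaling (0.23, adjusted p = 0.012) and quantile normalization (0.46, adjusted p = 1.89e-04), but fell past it with the length trend removed. With that trend removed EHMT1 also fell in ENZ (-0.28, adjusted p = 0.00684) and EPZ (-0.21, adjusted p = 0.0271). SETDB1, which trimethylates H3K9 at retroelements with its cofactor ATF7IP, rose by 0.29 ± 0.068 in Combination (adjusted p = 0.00313) and by 0.45 with median-of-ratios scaling. In ENZ the log2 change of SETDB1 was 0.20 (adjusted p = 0.0277), a call lost under 5 alternatives, among them quantile normalization (adjusted p = 0.0647) and the fits without the second ENZ library (adjusted p = 0.0785) and without the first DMSO library (adjusted p = 0.191). SETDB2 averaged 2.16 FPKM in Combination and 1.85 FPKM in DMSO and was not called in any treatment against DMSO, although in Combination it passed with median-of-ratios scaling (0.27, adjusted p = 0.0144) and with the length trend removed (0.25, adjusted p = 0.0201), and in EPZ with quantile normalization (-0.26, adjusted p = 0.0291). Over the 6 genes 1 rose and 3 fell in Combination (16.7% and 50%, against 33.3% and 47.4% of all tested genes), so that the share that fell lay near that of all genes. In ENZ 1 rose and 1 fell (16.7% each, against 27.9% and 28.8%), and in EPZ 0 rose and 3 fell (50%, against 32.4%).

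Of the 6 methyltransferases of H3K36, H3K79 and H4K20, 4 rose and 2 fell in Combination (66.7% and 33.3%, against 33.3% and 47.4% of all tested genes), with a median log2 change of 0.55, against -0.15 over all genes. In ENZ 3 rose and 1 fell (50% and 16.7%, against 27.9% and 28.8%), and in EPZ 1 rose and 2 fell (16.7% and 33.3%, against 23.4% and 32.4%). SETD2, which trimethylates H3K36 behind the elongating polymerase, had 8.41 and 8.94 FPKM in Combination, 6.63 and 7.77 FPKM in ENZ, 5.78 and 5.78 FPKM in EPZ and 4.83 and 5.1 FPKM in DMSO. The groups stood in that order without overlap. For SETD2 the log2 change was 0.70 ± 0.081 in Combination (adjusted p = 2.10e-05), 0.46 ± 0.081 in ENZ (adjusted p = 0.00108) and 0.19 in EPZ (adjusted p = 0.0769; 0.23, adjusted p = 0.0328, with median-of-ratios scaling). SUV420H2, which with SUV420H1 methylates H4K20, had 11.2 and 10.6 FPKM in Combination, 11.7 and 9.36 FPKM in ENZ, 6.81 and 7.2 FPKM in EPZ and 6.23 and 6.96 FPKM in DMSO. Both groups with ENZ lay above both groups without it. For SUV420H2 the log2 change was 0.65 ± 0.097 in Combination (adjusted p = 1.48e-04), 0.59 ± 0.097 in ENZ (adjusted p = 6.97e-04) and 0.077 in EPZ (adjusted p = 0.527).

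SUV420H1 averaged 11.2 FPKM in Combination, 8.2 FPKM in ENZ, 8.92 FPKM in EPZ and 7.18 FPKM in DMSO. It rose by 0.57 ± 0.071 in Combination (adjusted p = 3.62e-05) and by 0.28 in EPZ (adjusted p = 0.00849), and the call in EPZ was lost without the second DMSO library (0.25, adjusted p = 0.0598). ASH1L, a methyltransferase of H3K36, rose by 0.53 ± 0.069 in Combination (adjusted p = 4.92e-05) and by 0.38 ± 0.069 in ENZ (adjusted p = 0.00123), with 0.023 in EPZ (adjusted p = 0.793). NSD1, which dimethylates H3K36 between genes, averaged 12.6 FPKM in Combination and 14.3 FPKM in DMSO, and its log2 change of -0.17 (adjusted p = 0.0397) was -0.0082 with median-of-ratios scaling and 0.07 with quantile normalization, but -0.34 (adjusted p = 4.40e-04) with the length trend removed. It lost its call without any 1 of the Combination, EPZ or DMSO libraries (adjusted p = 0.0585 to 0.15). In EPZ the change of NSD1 was -0.24 (adjusted p = 0.0144), lost with quantile normalization and without either DMSO library or the second EPZ library.

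DOT1L, the known methyltransferase of H3K79, had 12.8 and 12.7 FPKM in Combination, 18.9 and 17 FPKM in ENZ, 15.7 and 14.7 FPKM in EPZ and 21.5 and 22.1 FPKM in DMSO. All treated libraries lay below both DMSO libraries, and the groups did not overlap. For DOT1L the log2 change was -0.73 ± 0.067 in Combination (adjusted p = 3.83e-06; -0.42 with quantile normalization), -0.27 ± 0.067 in ENZ (adjusted p = 0.00778) and -0.49 ± 0.067 in EPZ (adjusted p = 2.39e-04). The call in ENZ was lost with quantile normalization (-0.18, adjusted p = 0.0574) and without the second DMSO library (-0.24, adjusted p = 0.0541).

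SMYD2, a methyltransferase known for substrates such as p53 and the retinoblastoma protein besides histones, had 3.08 and 2.68 FPKM in Combination, 5.14 and 4.52 FPKM in ENZ, 8.49 and 10 FPKM in EPZ and 12.5 and 10.8 FPKM in DMSO. Each group lay below the next without overlap, and the Combination mean was 0.248 times the DMSO mean. For SMYD2 the log2 change was -1.70 ± 0.1 in Combination (adjusted p = 1.79e-07), -1.11 ± 0.1 in ENZ (adjusted p = 2.45e-05) and -0.30 ± 0.1 in EPZ (adjusted p = 0.0329). The call in EPZ was lost under 4 other settings, without the first EPZ library (-0.19, adjusted p = 0.237) and without the first DMSO library (-0.20, adjusted p = 0.211). SMYD3 averaged 9.97 FPKM in Combination and 11.5 FPKM in DMSO, a log2 change of -0.18 (adjusted p = 0.0394) that was -0.022 with median-of-ratios scaling and 0.003 with quantile normalization, and it lost its call without 5 of the 8 libraries, either Combination, either EPZ or the first DMSO library (-0.11 to -0.20, adjusted p = 0.0598 to 0.29). In EPZ SMYD3 fell by 0.29 (adjusted p = 0.0084), a call lost without the first EPZ library (adjusted p = 0.0571) or the first DMSO library (-0.21, adjusted p = 0.0841).

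Of the 4 H3K4 demethylases in the list, 2 rose and 2 fell in Combination (50% each, against 33.3% and 47.4% of all tested genes). The flavin-dependent enzymes KDM1A and KDM1B fell and the Jumonji enzymes KDM5A and KDM5B rose. KDM5C, a further KDM5 gene outside the list, was named after its values were seen. For KDM5C the log2 change was -0.16 in Combination (adjusted p = 0.0343), -0.22 in ENZ (adjusted p = 0.0103) and 0.089 in EPZ (adjusted p = 0.231). KDM1A (LSD1), a subunit of the CoREST complex, had 19.5 and 19 FPKM in Combination, 33.2 and 32.8 FPKM in ENZ, 28.8 and 28.7 FPKM in EPZ and 45.3 and 41.4 FPKM in DMSO. The groups did not overlap, and the replicates were close together. For KDM1A the log2 change was -1.13 ± 0.059 in Combination (adjusted p = 6.21e-08; -0.67 with quantile normalization), -0.38 ± 0.059 in ENZ (adjusted p = 4.91e-04; -0.21 with quantile normalization) and -0.57 ± 0.059 in EPZ (adjusted p = 4.20e-05).

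KDM1B (LSD2), which acts on H3K4 in the bodies of transcribed genes, had 9.96 and 9.64 FPKM in Combination, 12.3 and 13.5 FPKM in ENZ, 8.94 and 9.34 FPKM in EPZ and 13.4 and 13 FPKM in DMSO. Both groups with EPZ6438 lay below both groups without it. For KDM1B the log2 change was -0.39 ± 0.067 in Combination (adjusted p = 3.47e-04; -0.23 with median-of-ratios scaling), -0.032 in ENZ (adjusted p = 0.702) and -0.49 ± 0.067 in EPZ (adjusted p = 2.55e-04).

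KDM5B (JARID1B), which removes methyl groups from trimethylated H3K4, had 27.5 and 30 FPKM in Combination, 16.6 and 16.6 FPKM in ENZ, 20.4 and 20.4 FPKM in EPZ and 9.87 and 11 FPKM in DMSO. All treated libraries stood above both DMSO libraries, and the Combination mean was 2.76 times the DMSO mean. For KDM5B the log2 change was 1.38 ± 0.069 in Combination (adjusted p = 4.25e-08), 0.62 ± 0.069 in ENZ (adjusted p = 6.42e-05) and 0.91 ± 0.069 in EPZ (adjusted p = 6.61e-06). KDM5A (JARID1A) had 6.43 and 6.38 FPKM in Combination, 5.05 and 5.62 FPKM in ENZ, 4.43 and 4.19 FPKM in EPZ and 3.66 and 4.03 FPKM in DMSO. Its groups stood in that order, with a log2 change of 0.61 ± 0.078 in Combination (adjusted p = 4.14e-05), 0.39 ± 0.078 in ENZ (adjusted p = 0.00225; 0.24 with quantile normalization) and 0.13 in EPZ (adjusted p = 0.173).

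Of the H3K36 demethylases, KDM2B, also a subunit of a variant Polycomb complex that binds CpG islands, had 7.64 and 7.32 FPKM in Combination, 8 and 7.75 FPKM in ENZ, 8.12 and 7.4 FPKM in EPZ and 10.3 and 10.1 FPKM in DMSO. EPZ overlapped both Combination and ENZ, and all treated libraries lay below DMSO. For KDM2B the log2 change was -0.40 ± 0.068 in Combination (adjusted p = 3.18e-04; -0.24 with median-of-ratios scaling), -0.34 ± 0.068 in ENZ (adjusted p = 0.00227) and -0.36 ± 0.068 in EPZ (adjusted p = 0.00168). KDM2A averaged 20.9 FPKM in Combination, 23.5 FPKM in ENZ, 21.9 FPKM in EPZ and 21.7 FPKM in DMSO and was not called against DMSO. With quantile normalization KDM2A rose past the threshold in ENZ (0.21, adjusted p = 0.0175) and also in Combination.

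Among the 8 tested H3K9 demethylases, 5 rose and 2 fell in Combination (62.5% and 25%, against 33.3% and 47.4% of all tested genes). In ENZ 3 rose and 2 fell (37.5% and 25%, against 27.9% and 28.8%), and in EPZ 4 rose and 1 fell (50% and 12.5%, against 23.4% and 32.4%). KDM4A (JMJD2A), which acts on trimethylated H3K9 and H3K36, had 24.4 and 23.8 FPKM in Combination, 16.6 and 16 FPKM in ENZ, 16.4 and 16.1 FPKM in EPZ and 12.5 and 11.3 FPKM in DMSO. ENZ and EPZ overlapped each other and lay between Combination and DMSO. For KDM4A the log2 change was 0.96 ± 0.064 in Combination (adjusted p = 3.49e-07), 0.42 ± 0.064 in ENZ (adjusted p = 4.52e-04) and 0.42 ± 0.064 in EPZ (adjusted p = 4.83e-04). These values are uncertain, because 48.5% of the exonic bases of KDM4A are shared with other genes, among them an antisense gene.

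KDM4B (JMJD2B), an androgen receptor coactivator, had 20 and 18.5 FPKM in Combination, 14.5 and 12.8 FPKM in ENZ, 30.3 and 30.1 FPKM in EPZ and 26.5 and 25.2 FPKM in DMSO. ENZ was the lowest group and EPZ the highest, with no overlap. For KDM4B the log2 change was -0.41 ± 0.071 in Combination (adjusted p = 4.10e-04), -0.87 ± 0.071 in ENZ (adjusted p = 1.03e-05) and 0.22 ± 0.071 in EPZ (adjusted p = 0.0254). The call in Combination was lost with quantile normalization (-0.016, adjusted p = 0.856), and that in EPZ without any 1 of the EPZ or DMSO libraries (0.18 to 0.25, adjusted p = 0.0555 to 0.143).

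PHF8, which removes methyl groups from H3K9 and H4K20, had 10 and 10.7 FPKM in Combination, 10.3 and 9.89 FPKM in ENZ, 22 and 21.1 FPKM in EPZ and 19.4 and 20 FPKM in DMSO. Both groups with ENZ lay between 9.89 and 10.7 FPKM, and both groups without it between 19.4 and 22 FPKM. For PHF8 the log2 change was -0.86 ± 0.062 in Combination (adjusted p = 5.69e-07), -0.90 ± 0.062 in ENZ (adjusted p = 3.43e-06) and 0.12 in EPZ (adjusted p = 0.125; 0.17, adjusted p = 0.0338, with median-of-ratios scaling and 0.23, adjusted p = 0.0139, with quantile normalization). KDM7A, of the same subfamily and acting on H3K9 and H3K27, had 4.26 and 4.6 FPKM in Combination, 1.87 and 2.4 FPKM in ENZ, 3.37 and 3.46 FPKM in EPZ and 2.06 and 1.85 FPKM in DMSO. Both groups with EPZ6438 lay above both groups without it, and ENZ overlapped DMSO. For KDM7A the log2 change was 0.88 ± 0.098 in Combination (adjusted p = 1.66e-05), 0.08 in ENZ (adjusted p = 0.511) and 0.58 ± 0.098 in EPZ (adjusted p = 8.63e-04). PHF2, the other member of that subfamily, averaged 19.7 FPKM in Combination, 16.3 FPKM in ENZ, 12.9 FPKM in EPZ and 12.9 FPKM in DMSO. It rose by 0.58 ± 0.059 in Combination (adjusted p = 8.35e-06; 0.88 with quantile normalization) and by 0.32 ± 0.059 in ENZ (adjusted p = 0.0013).

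KDM3A (JMJD1A), an H3K9 demethylase known for regulation by hypoxia and as a coactivator of the androgen receptor, had 9.06 and 9.23 FPKM in Combination, 6.39 and 7.34 FPKM in ENZ, 7.55 and 7.58 FPKM in EPZ and 5.31 and 5.81 FPKM in DMSO. All treated libraries lay above both DMSO libraries. For KDM3A the log2 change was 0.63 ± 0.077 in Combination (adjusted p = 3.27e-05), 0.26 ± 0.077 in ENZ (adjusted p = 0.0166) and 0.38 ± 0.077 in EPZ (adjusted p = 0.00229), with the call in ENZ lost in 5 alternatives, among them without the second ENZ library (0.17, adjusted p = 0.0784) and without the first DMSO library (0.21, adjusted p = 0.117). KDM4C averaged 4.75 FPKM in Combination and 3.1 FPKM in DMSO, a rise of 0.49 ± 0.071 (adjusted p = 1.17e-04), with log2 changes of 0.068 in ENZ (adjusted p = 0.437) and 0.14 in EPZ (adjusted p = 0.112). KDM3B, of the same subfamily as KDM3A, averaged 14.7 FPKM in Combination, 15.8 FPKM in ENZ, 12.8 FPKM in EPZ and 14.8 FPKM in DMSO. Its one call against DMSO was in EPZ (-0.19, adjusted p = 0.0172), and it was lost under both other scalings and without any 1 of the EPZ or DMSO libraries (-0.18 to -0.21, adjusted p = 0.0641 to 0.103). Under both other scalings KDM3B rose past the threshold in Combination against DMSO. KDM4D, below the filter, had 0.698 and 0.781 FPKM in Combination, 0.611 and 1 FPKM in ENZ, 0.51 and 0.542 FPKM in EPZ and 0.284 and 0.547 FPKM in DMSO, or an estimated 13 to 70 fragments in a library.

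KDM6B (JMJD3), a demethylase of H3K27 and so of the mark that EZH2 writes, had the largest rise of all members in Combination. It had 33.2 and 33.8 FPKM in Combination, 15.7 and 13.2 FPKM in ENZ, 19.8 and 18.5 FPKM in EPZ and 10.7 and 11.3 FPKM in DMSO. The 4 groups did not overlap, and the Combination mean was 3.04 times the DMSO mean. For KDM6B the log2 change was 1.52 ± 0.081 in Combination (adjusted p = 6.97e-08), 0.36 ± 0.081 in ENZ (adjusted p = 0.00447) and 0.74 ± 0.081 in EPZ (adjusted p = 5.88e-05). KDM8 (JMJD5) had 2.14 and 1.99 FPKM in Combination, 1.26 and 1.44 FPKM in ENZ, 2.22 and 1.86 FPKM in EPZ and 1.09 and 1.33 FPKM in DMSO. Both groups with EPZ6438 lay above both groups without it. For KDM8 the log2 change was 0.47 ± 0.1 in Combination (adjusted p = 0.00173) and 0.46 ± 0.1 in EPZ (adjusted p = 0.00398), with 0.091 in ENZ (adjusted p = 0.47). At this low level the change depends on the pseudocount, being 0.73 in Combination and 0.71 in EPZ with a pseudocount of 0.1, and the call in Combination was lost with quantile normalization (0.15, adjusted p = 0.196).

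Combination was also set against each single agent. Against ENZ, 17 of 38 members were higher and 11 lower (44.7% and 28.9%). Over all tested genes these shares were 25.3% and 45.5% (70.8% in all). The median log2 difference was 0.14 over the members and -0.15 over all genes. Leaving aside the fits without a library, 14 of 17 higher and 8 of 11 lower calls held under every alternative. Of these member calls 60.7% were higher, and 74.2% with median-of-ratios scaling, while over all genes the share moved to 51.2% with that scaling, against 35.7% without it. KDM6B differed the most on the higher side, with a log2 difference of 1.17 ± 0.081 (adjusted p = 1.03e-06), and SUV39H2 (-1.32 ± 0.088, adjusted p = 7.60e-07) and SUV39H1 (-1.30 ± 0.075, adjusted p = 2.75e-07) on the lower side. PHF8 did not differ past the threshold between Combination and ENZ (0.041 ± 0.062, adjusted p = 0.57), and neither did SUV420H2 (0.051 ± 0.097, adjusted p = 0.653) or KDM2B (-0.067 ± 0.068, adjusted p = 0.396). PHF8 passed with median-of-ratios scaling (0.22, adjusted p = 0.00905) and quantile normalization (0.24, adjusted p = 0.00679), and SUV420H2 with quantile normalization (0.26, adjusted p = 0.0402). KDM4B was higher in Combination than in ENZ by 0.46 ± 0.071 (adjusted p = 2.33e-04; 0.77 with quantile normalization).

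Against EPZ, 22 members were higher and 8 lower in Combination (57.9% and 21.1%). Over all tested genes these shares were 29.2% and 43.7% (72.8% in all). The median log2 difference was 0.23 over the members and -0.11 over all genes. Leaving aside the fits without a library, 17 of 22 higher and 7 of 8 lower calls held under every alternative. KDM6B was again the highest (0.78 ± 0.081, adjusted p = 1.48e-05). The lowest were SMYD2 (-1.40 ± 0.1, adjusted p = 1.29e-06), PHF8 (-0.98 ± 0.062, adjusted p = 4.26e-07) and SUV39H1 (-0.95 ± 0.075, adjusted p = 2.01e-06). KDM8 (0.012 ± 0.1, adjusted p = 0.92), EHMT2 (0.064 ± 0.074, adjusted p = 0.452) and KDM1B (0.091 ± 0.067, adjusted p = 0.247) did not differ past the threshold between Combination and EPZ. KDM1B did so with median-of-ratios scaling (0.20, adjusted p = 0.0205), quantile normalization (0.21, adjusted p = 0.0193) and the length trend removed (0.17, adjusted p = 0.0334).

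Whether the change in Combination departed from the sum of the single-agent changes was tested with the interaction, the log2 value of Combination minus ENZ minus EPZ plus DMSO. Past an adjusted p of 0.05, it was above 0 for 6 of the 38 members and below 0 for 3 (15.8% and 7.89%). Over all tested genes these shares were 9.99% and 29.6% (39.6% in all). The median was 0.10 over the members and -0.12 over all genes. Of the member calls 66.7% were above 0, and 78.6% with median-of-ratios scaling and 84.2% with quantile normalization, while over all genes the share was 25.2%, and 44.3% and 49.3% with those scalings. SUV39H2 fell in Combination by more than the sum, with a log2 change of -1.40 against a sum of -0.69 (interaction -0.71 ± 0.13, adjusted p = 0.00181). SETD7 (-0.48 ± 0.093, adjusted p = 0.00321) and SUV39H1 (-0.44 ± 0.11, adjusted p = 0.00938) were the other members called below 0. For SETD7 the sum of the single-agent changes was -0.27 and the change in Combination -0.75. The value of SUV39H1 with the length trend removed was -0.29 (adjusted p = 0.0575).

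KMT2B (interaction 0.66 ± 0.12, adjusted p = 0.00219) and KMT2D (0.59 ± 0.14, adjusted p = 0.00958) rose in Combination while their single-agent changes summed to 0.013 and -0.14. KDM6B rose by 1.52 in Combination, and its single-agent changes summed to 1.10 (interaction 0.42 ± 0.11, adjusted p = 0.0167; 0.79 with quantile normalization). The call of KDM6B was lost without the second EPZ library (adjusted p = 0.071) or the second DMSO library (adjusted p = 0.0586). EHMT1 (0.33), KDM2B (0.29) and PHF2 (0.25) were the remaining members called above 0, and each lost its call without either DMSO library and in further leave-outs. The count of members called above 0 was 2 without the second EPZ library or the second DMSO library and 3 without the first Combination library or the first DMSO library, while the count called below 0 was 3 with each library left out. For KDM5B, with changes of 0.62 in ENZ and 0.91 in EPZ, the change of 1.38 in Combination did not depart from the sum of 1.53 past the threshold (interaction -0.15 ± 0.097, adjusted p = 0.249). The same held for KDM4A (0.12 ± 0.091, adjusted p = 0.325; 0.38, adjusted p = 0.00927, with quantile normalization) and SMYD2 (-0.29 ± 0.15, adjusted p = 0.149).

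**Figure D4:**
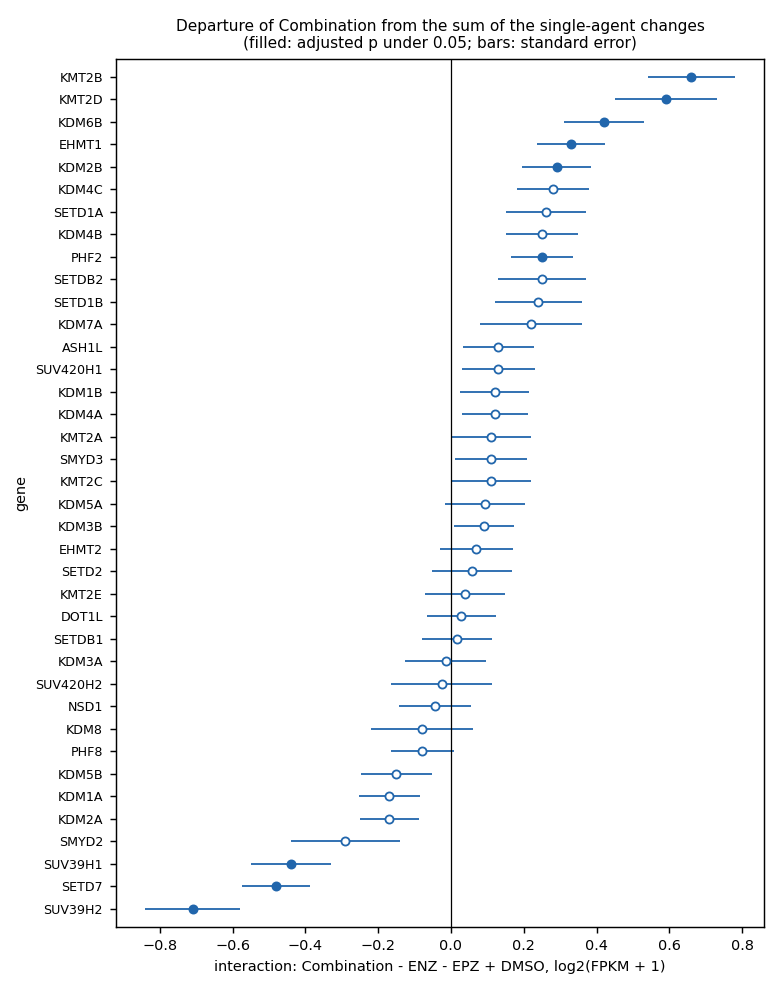
Interaction of each tested member on the log2(FPKM + 1) scale, with its standard error, sorted by size; filled points passed an adjusted p of 0.05. KMT2B (0.66) and KMT2D (0.59) are at the top and SUV39H2 (-0.71) at the bottom.

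The 12 pairs of close paralogues are set side by side by their log2 change in Combination against DMSO. SETD1A stood at -0.54 and SETD1B at 0.20, EHMT2 at -0.42 and EHMT1 at 0.057, SMYD2 at -1.70 and SMYD3 at -0.18, and KDM3A at 0.63 and KDM3B at -0.011. KDM1A stood at -1.13 and KDM1B at -0.39, KDM5B at 1.38 and KDM5A at 0.61, SUV39H1 at -1.81 and SUV39H2 at -1.40, and KDM2B at -0.40 and KDM2A at -0.054. SUV420H1 and SUV420H2 stood at 0.57 and 0.65, SETDB1 and SETDB2 at 0.29 and 0.15, KMT2C and KMT2D at 0.71 and 0.45, and KMT2A and KMT2B at 0.40 and 0.68. These differences within pairs were not tested.

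The members are long genes. Their median exonic length was 9015 bases, against 4933 bases for the tested genes, and 23 of the 39 were in the longest of 4 length classes of equal size. The change in Combination moved with length over all genes, with a median log2 change of -0.34 in the shortest class, -0.26 in the second, -0.14 in the third and 0.05 in the longest. Of all genes in the longest class, 42.3% rose and 36.3% fell in Combination, and 37.1% rose and 20.7% fell in ENZ. Of the 23 members in that class, 14 rose and 6 fell in Combination, and 8 rose and 4 fell in ENZ. The members of the longest class had a median of 0.45 (23 genes), those of the third -0.018 (10 genes) and those of the second -1.40 (5 genes). With the trend with length removed in each library, 19 of 38 tested members rose and 14 fell in Combination, with a median of 0.22. Over all 11613 genes in that fit, 39.3% rose and 40.8% fell, with a median of -0.0081. SUV39H1, SUV39H2 and SMYD2 are among the shorter members, with 3368, 3565 and 4889 exonic bases, and KDM5B and KMT2A are the longest.

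**Figure D5:**
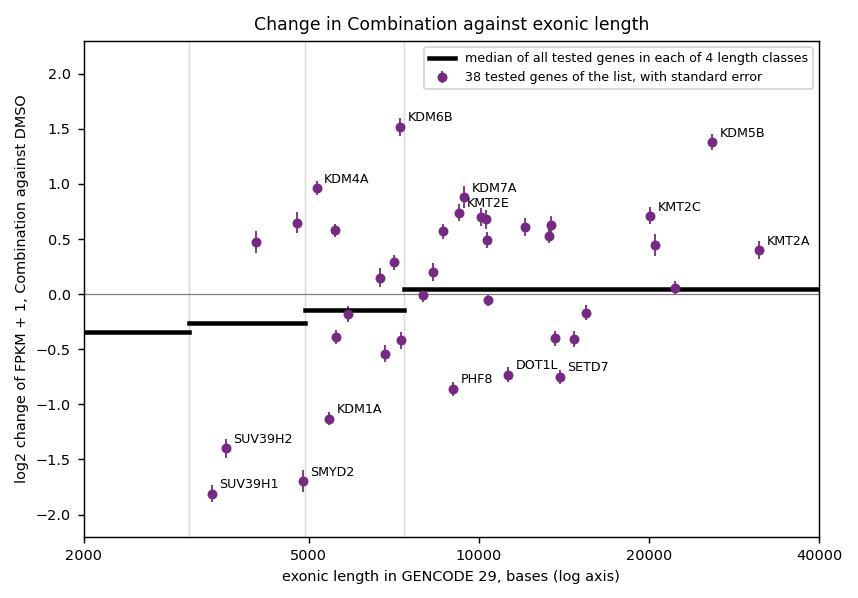
Log2 change of FPKM + 1 in Combination against DMSO of the 38 tested members, with its standard error, over exonic length in bases on a log axis; black bars give the median of all tested genes in each of the 4 length classes. The members of the longest class lie on both sides of the bar at 0.05, and SUV39H1 (-1.81), SUV39H2 (-1.40) and SMYD2 (-1.70) lie far below the bar of the second class at -0.26.

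Partner proteins of these enzymes were read from lists of complex subunits and cofactors. Of 13 subunits of the COMPASS complexes, which carry the SETD1 and KMT2 enzymes, 2 rose and 11 fell in Combination (15.4% and 84.6%, against 33.3% and 47.4% of all tested genes), with a median log2 change of -0.71, against -0.15 over all genes. WDR5, the core subunit that binds the catalytic domain, averaged 16.6 FPKM in Combination and 41.7 FPKM in DMSO (log2 change -1.28 ± 0.059, adjusted p = 2.67e-08), and PAGR1 of the KMT2C and KMT2D complexes stood at -1.20 ± 0.074. In ENZ 0 of the 13 rose and 6 fell (46.2%, against 28.8% of all genes), and in EPZ 0 rose and 10 fell (76.9%, against 32.4%). Of 12 readers and cofactors of H3K9 methylation, 2 rose and 10 fell in Combination (16.7% and 83.3%, against 33.3% and 47.4% of all genes), with a median of -0.28. The largest falls were those of the HP1 protein gene CBX3 (-1.52 ± 0.065, adjusted p = 1.47e-08) and TRIM28 (-1.38 ± 0.059, adjusted p = 1.51e-08), the corepressor that recruits SETDB1. Of the other HP1 genes, CBX1 fell in Combination (-0.63), whereas CBX5 rose in Combination (0.29), ENZ (0.95) and EPZ (0.37). In ENZ 1 of the 12 rose and 5 fell (8.33% and 41.7%, against 27.9% and 28.8% of all genes). In EPZ 1 rose and 7 fell (8.33% and 58.3%, against 23.4% and 32.4%).

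Of 10 tested subunits of LSD1-CoREST complexes, 5 rose and 3 fell in Combination (50% and 30%, against 33.3% and 47.4% of all tested genes), with a median of 0.23, against -0.15. ZMYM3 rose by 1.87 ± 0.08, and the deacetylase gene HDAC2 fell by 1.41 on the log2 scale. Of 10 genes of DOT1L partners and elongation factors, 4 rose and 3 fell (40% and 30%, against the 33.3% and 47.4% of all genes). Their median log2 change was 0.06. The lowest of them, AFF3 (-2.16) and ELL2 (-1.25), were also lower in ENZ (-2.56 and -1.97) and higher in EPZ (0.31 and 1.30). A further 17 tested genes outside the list came from the wider families of histone lysine methyltransferases and demethylases, SETD3 and several PRDM genes among them. Of these 4 rose and 10 fell in Combination (23.5% and 58.8%, against 33.3% and 47.4% of all genes). Their median of -0.19 lies near the -0.15 of all genes. The H4K20 monomethyltransferase gene SETD8 (-1.42 ± 0.075) and the H3K36 dimethyltransferase gene WHSC1 (-1.23 ± 0.061) fell the most. KDM6A, the X-linked paralogue of KDM6B, averaged 59.8 FPKM in Combination and 27.7 FPKM in DMSO and was named after its values were seen. For KDM6A the log2 change was 1.08 ± 0.058 in Combination, 1.00 in ENZ and -0.36 in EPZ, whereas KDM6B stood at 1.52, 0.36 and 0.74.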

How the data were processed

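RNA was sequenced in 8 libraries of C4-2B cells, 2 in each of 4 groups. The authors deposited FPKM values per gene. The submitters' processing notes name STAR and hg38 with no version. No source used here gives the counting tool, the annotation or the strand setting. The members and lists were chosen with earlier results of these data known. Of 26475 rows 26443 carry values, and 28 symbols had been turned into dates.

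FPKM were tested as log2(FPKM + 1) for 11874 genes whose mean reached 1 FPKM, which understates changes of low genes. The 4 groups were modelled in limma 3.58.1 (R 4.3.3), tested on simulated data first, with two-sided moderated tests whose prior variance followed expression (prior df 5.47, residual df 4). P-values were adjusted by Benjamini-Hochberg over all tested genes in each of 6 comparisons, at 0.05. "Rose" and "fell" mean past this threshold.

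FPKM hold no totals, so depth was estimated from the low values. Of genes under 0.1 FPKM, 89.5% to 94.5% stood in whole-number ratios (tolerance 0.04%) to the first DMSO library. Fragment numbers are estimates scaled by 458 single-transcript genes, 69% of them within 5% of the median. Exonic lengths are from GENCODE release 29, in which SUV420H1 and SUV420H2 are KMT5B and KMT5C. Promoter sequences are RefSeq's (GRCh38.p14), searched for words chosen after the values were seen.

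Values of each library are given for the 6 highest and 6 lowest changes past the threshold in each comparison with DMSO, with both treated values outside the control values, and for the 6 smallest adjusted p of the interaction. KDM4D is added as the member below the filter. Alternatives were a pseudocount of 0.1, no filter or a mean of 5 FPKM, median-of-ratios scaling, quantile normalization, a replicate block, the groups compared alone, each library left out and, chosen after seeing the data, the loess trend with exonic length removed. Tables and figures were made in Python 3.11.15 (numpy 2.4.6, pandas 2.3.3, matplotlib 3.10.9).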

Additional observations from a re-analysis of the deposited data

Results flagged for a closer look

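For 9 members the effect of one agent differed with and without the other, as tested by the interaction (limma, adjusted over all tested genes). Its log2 value was -0.71 for SUV39H2, -0.48 for SETD7 and -0.44 for SUV39H1, where Combination lay below the sum of the single-agent changes. It was 0.66 for KMT2B, 0.59 for KMT2D, 0.42 for KDM6B, 0.33 for EHMT1, 0.29 for KDM2B and 0.25 for PHF2, where Combination lay above that sum. Over all tested genes 39.6% passed the same test. For KMT2B, KMT2D, SETD7 and SUV39H2 the call held under every alternative run.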

How the results depend on the processing

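The counts of members higher and lower in the 5 comparisons other than the interaction kept within 1.5 times under every alternative, and with each library left out they were 19 to 20 and 12 to 14 in Combination, 9 to 15 and 7 to 9 in ENZ, and 7 to 11 and 8 to 13 in EPZ. Against ENZ, Combination gave 13 to 17 higher and 9 to 11 lower, and against EPZ 17 to 22 and 7 to 8. For the interaction these ranges were 2 to 8 called above 0 and 3 to 3 called below, and 11 members were called above 0 with median-of-ratios scaling and 16 with quantile normalization, against 6 as reported; the cause was not tested. Changes of sign were seen for KDM2A in Combination against DMSO (0.33, quantile), ENZ (0.02, median-of-ratios; 0.13, quantile) and EPZ (0.21, quantile), for KDM3B against DMSO (0.16, median-of-ratios; 0.27, quantile) and ENZ (0.15, quantile), and against DMSO for EHMT1 (-0.20, length trend), NSD1 (0.07, quantile) and SMYD3 (0.003, quantile). With its change of sign a call was gained for KDM3B, for EHMT1 and for KDM2A against DMSO and EPZ, and lost for the others. The counts of lost and gained calls that follow leave these values out. Over the 228 member values, calls were lost without a change of sign for 7 with median-of-ratios scaling, 13 with quantile normalization, 16 with the length trend removed, 6 with no filter and 7 with the groups compared alone, and for 4 to 18 with a library left out, while the pseudocount of 0.1 changed no call. Calls were gained for 20 values with median-of-ratios scaling, 24 with quantile normalization and 13 with the length trend removed, more than were lost under both scalings, for 2 or 3 with the filter at 5 FPKM, the replicate block or the groups compared alone, and for 9 and 6 without the first and the second ENZ library. Replicate deviations of equal numbers correlated at -0.015 to 0.109. With 2 libraries a group, such values cannot exclude a culture or batch shared by libraries of equal number. The replicate block moved the count lower in ENZ to 9 and the interaction count called above 0 to 7. A lone library left in a group was assumed to vary like the other groups. Low members are limited by depth, with an estimated 68 fragments in a library for KDM8.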
